A study of Mus musculus with 10 samples.

Results

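The genes described here carry glucose carbon through glycolysis to pyruvate and lactate, take pyruvate into mitochondria, and branch into the pentose phosphate pathway. They were chosen by name, as 41 mouse gene symbols, and matched to the Ensembl gene identifiers of the count table with the version suffix ignored. Because Aldoa is carried by 2 identifiers in the annotation, the 41 symbols gave 42 of the 53379 identifiers in the table, each called a member. Of these, 41 were expressed well enough to be tested, among 14337 genes tested in all, and Eno2, a neuronal enolase, was not tested, with 35 counts over all libraries.

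RNA was sequenced from MC38 cells, a mouse colon carcinoma line, taken by sorting from tumors at day 21 of growth. Cells were kept that were positive for the fluorescent protein dTomato and negative for CD45, the surface protein common to leukocytes. Each library came from 1 C57BL/6J mouse, 5 fed a high-fat diet and 5 fed a control diet, and both groups carried the same tumor line. The make-up of the diets, how long they were fed, and the sex and age of the animals are not given in these sources. The design holds 1 comparison, high-fat against control, and addresses whether host diet alters the RNA of the tumor cells.

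Glycolysis splits glucose in an upper phase that spends ATP, from hexokinase to aldolase and triose phosphate isomerase, and a lower phase that returns ATP, from glyceraldehyde phosphate dehydrogenase to pyruvate kinase. Many tumor cells reduce much of their pyruvate to lactate and export it, and the rest enters mitochondria, where pyruvate dehydrogenase turns it into acetyl-CoA. The oxidative branch of the pentose phosphate pathway makes NADPH, and the nonoxidative branch exchanges sugars between ribose phosphate and glycolysis.

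High-fat libraries held between 16513388 and 17154050 counts and control libraries between 17050797 and 18653705, with an exact permutation p of 0.0317 (two-sided) for the difference in means. Reads from mitochondrially encoded genes made up 1.40% to 4.36% of counts in high-fat libraries and 1.04% to 2.64% in control libraries. Values below are CPM, read counts scaled to a common library total after trimmed-mean (TMM) normalisation, and a count of 3, the limit that a count of 0 allows, was 0.175 to 0.183 CPM in high-fat and 0.158 to 0.178 CPM in control libraries. Markers of colon epithelium were at or near 0: 8 of them, keratins and Epcam included, summed to 1.22 to 3.18 CPM in high-fat and 1.42 to 6.23 CPM in control libraries. A set of 8 fibroblast markers summed to 6231 to 12380 CPM in high-fat and 6909 to 11857 CPM in control libraries, most of it from Col3a1. Whether this is the line's own profile was not tested. Adipocyte markers summed to at most 0.183 CPM in high-fat and 0.159 CPM in control libraries. Endothelial markers summed to 23.7 to 39.3 CPM in high-fat and 17.8 to 25.7 CPM in control libraries, mostly Pecam1, and of the 3 tested Vwf (change 1.77) and Cdh5 (0.95) were higher at an unadjusted p under 0.05. The 9 pan-leukocyte markers summed to 16.02 to 54.4 CPM in high-fat and 19.5 to 198 CPM in control libraries, all 9 with a negative change and 5 lower at that threshold. The 13 macrophage markers, none of them at 0 throughout, summed to between 32.3 and 73.5 CPM in high-fat libraries and between 66.1 and 449 CPM in control libraries. All 13 were lower at an unadjusted p under 0.05 and none passed an adjusted p of 0.05 in edgeR or limma-voom, while 10 did in DESeq2. Of all genes tested 48.6% had a negative change, and 6.62% were lower and 5.45% higher at the unadjusted threshold. In DESeq2 1.84% of all genes passed. In bulk libraries fewer cells of a type and less RNA per cell cannot be told apart.

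On the high-fat diet 13 of the 15 tested identifiers of upper and lower glycolysis had a negative change, against 48.6% of all genes tested. At an unadjusted p under 0.05, 8 of the 15 were lower, against 6.62% of all genes. Of the 6 genes that bring pyruvate into mitochondria and to acetyl-CoA 0 were past that threshold, where 12.1% of all genes tested were in either direction, so with 6 genes this count is near that share. The median log2 change, high-fat minus control, was -0.19 over the 10 upper glycolysis identifiers and -0.28 over the 5 tested genes of lower glycolysis, against 0.05 over the 6 genes of the pyruvate carrier and pyruvate dehydrogenase complex. Among single genes, Pgk1, Eno1, Pdp1, Pdk1, Aldoa and Ldha had changes between -0.40 and -0.31. Pfkfb3 and Aldoc lay further below 0, at -0.48 and -1.25. The other members lower at an unadjusted p under 0.05 had changes between -0.29 and -0.17. The lactate dehydrogenase gene Ldhb stood the other way, at 35.2 ± 9.59 CPM in high-fat and 26.8 ± 3.16 CPM in control mice (mean ± SD, n = 5 each, as for each mean below). Its change was 0.39. With library size as a covariate the change was 0.10 (edgeR unadjusted p = 0.631). With the macrophage level as a covariate it was 0.20 (edgeR unadjusted p = 0.417). Ldhb also missed an unadjusted p of 0.05 without control mice 3 and 4. The same held without any 1 of high-fat mice 1 and 3 and control mice 2, 3 and 4. The lowest change of Ldhb without 1 library was 0.24, without high-fat mouse 1.

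In the quasi-likelihood fit of edgeR 0 members had an adjusted p under 0.05, where 0.0628% of all genes tested did. The count was 0 in DESeq2, against 1.84% of all genes, and 0 in limma-voom, against 0.0349%. At an unadjusted p under 0.05, 14 of the 41 tested members were lower, which is 34.1% of them against 6.62% of all genes tested. The 1 member higher at that threshold was Ldhb, 2.44% of members against 5.45% of all genes. Changes were negative for 28 of 41 members, 68.3% against 48.6% of all genes, and the median change was -0.12, against 0.01 over all genes. The members were chosen with earlier results of these data known, so these shares are a description and carry no test. The count of 14 depended on single libraries. Leaving out high-fat mouse 2 gave 4, as did leaving out high-fat mouse 3, and the count was 9 without high-fat mouse 4. It was 6 without control mouse 1, 9 without control mouse 4 and 5 without control mouse 5. The number of all genes lower at that threshold fell too, from 949 of 14337 tested. In the same order it was 797, 834, 713, 713, 906 and 807, of 14420 to 14510 tested. All 14 members kept a negative change in each of the 21 alternatives fitted across all genes. They were picked for a negative change in the same libraries, so the kept direction carries no test either.

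**Figure D1:**
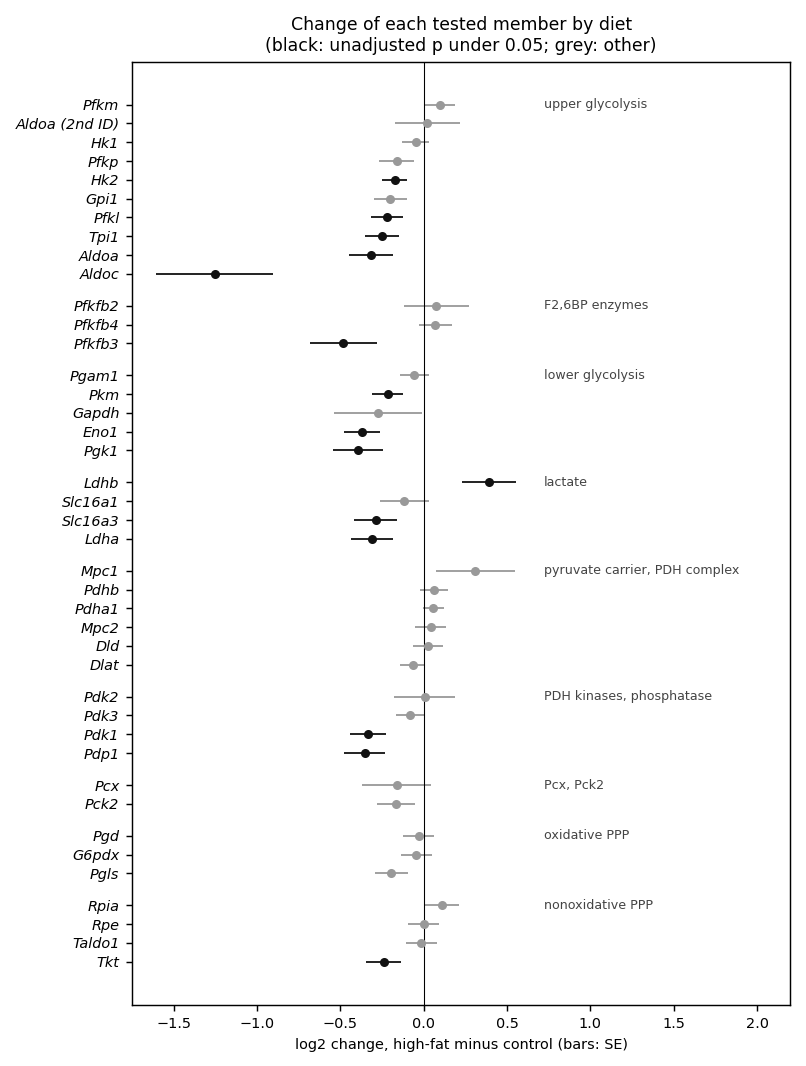
Log2 change of each tested member, high-fat minus control, grouped by step from upper glycolysis at the top to the nonoxidative pentose phosphate branch (PPP) at the bottom. Points are edgeR estimates and bars their standard errors. F2,6BP stands for fructose 2,6-bisphosphate and PDH for pyruvate dehydrogenase. Black points had an unadjusted p under 0.05, 14 of them left of 0 and 1, Ldhb, to the right.

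Expressed per kilobase of annotated exon, so that genes can be compared, the most abundant members were Aldoa, Pkm, Ldha, Tpi1 and Slc16a3. Aldoa averaged 390.5 ± 65.5 CPM per kilobase in high-fat and 486 ± 83.2 CPM per kilobase in control mice. Pkm averaged 285 ± 26.8 CPM per kilobase in high-fat and 331 ± 32.2 CPM per kilobase in control mice, and Ldha averaged 250.2 ± 45.6 CPM per kilobase in high-fat and 310.0 ± 34.9 CPM per kilobase in control mice. The pyruvate dehydrogenase subunit genes lay lower, Pdha1 at 37.6 ± 1.10 CPM per kilobase in high-fat and 36.1 ± 2.09 CPM per kilobase in control mice. The enzymes of the oxidative pentose phosphate branch were led by G6pdx at 48.3 ± 2.84 CPM per kilobase in high-fat and 49.8 ± 7.27 CPM per kilobase in control mice. These levels are least certain where reads fit several genes, since the sources used here do not say how such reads were treated. Gapdh, usually among the most abundant transcripts of a cell, averaged only 8.76 ± 3.72 CPM per kilobase in high-fat and 10.6 ± 1.82 CPM per kilobase in control mice. Of the 50-base windows along its longest transcript 27.8% also occur in other genes. Copies are taken here as genes elsewhere that share at least 50 of these windows, over at least 10% of their own length. For Gapdh 74 such copies, mostly processed pseudogenes, are annotated. Together they held 7.44% of the counts of gene and copies. The share of windows was 72.2% for Eno1, 68.0% for Pgk1, 41.5% for Pgam1, 34.4% for Pkm, 29.6% for Mpc1, 27.0% for Ldhb, 26.1% for Pfkfb2, 19.0% for Rpe, 16.9% for Pdha1, 16.6% for Ldha and 13.5% for Aldoa, and under 11% for the other members. A low share does not make a level certain. An annotated copy of Gpi1 held 43.3% of the counts of gene and copy together, and 1 of Taldo1 held 22.5%.

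**Figure D2:**
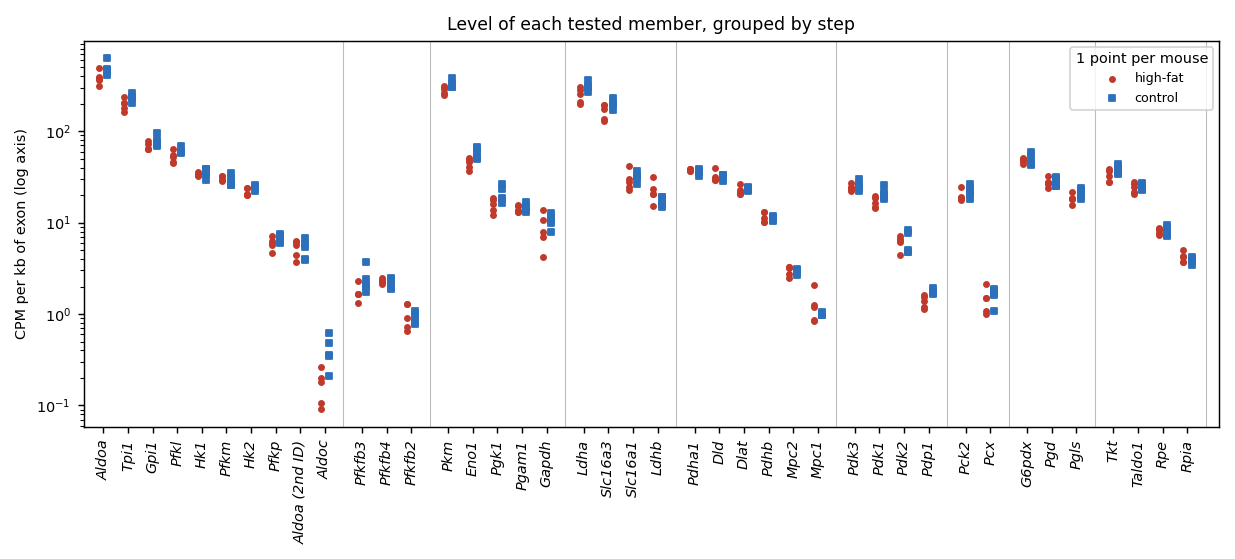
CPM per kilobase of exon on a log axis for the 41 tested members, with steps separated by grey lines in the order of the text. Circles are the 5 high-fat libraries and squares the 5 control libraries. Aldoa is highest and Aldoc lowest, and levels of most members overlap between diets.

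Upper glycolysis had 10 tested identifiers, of which 8 had negative changes and 5 were lower at an unadjusted p under 0.05. Over all genes tested, 48.6% had negative changes and 6.62% were lower at that threshold. Gene positions are those of GENCODE M21 on GRCm38. Aldoa (chr7:126795234-126800751, minus strand) encodes the main aldolase, which splits fructose bisphosphate into triose phosphates. Its level was 1433, 1061, 909, 1128 and 1152 CPM in high-fat mice 1 to 5, against 1384, 1351, 1300.5, 1209 and 1833 CPM in control mice 1 to 5. High-fat mouse 1 lay within the control range and the other 4 high-fat libraries lay below all controls, with a change of -0.32 on the log2 scale (SE 0.13, edgeR adjusted p = 0.358). Tpi1, which interconverts the triose phosphates, stood at 647, 499, 445, 559.6 and 568 CPM in high-fat mice 1 to 5, against 654, 636, 651, 564 and 727 CPM in control mice 1 to 5. High-fat mouse 1 exceeded control mice 2 and 4, high-fat mouse 5 exceeded control mouse 4, and the other 3 lay below all controls, the log2 change being -0.25 (SE 0.10, edgeR adjusted p = 0.346). Aldoc, the brain-type aldolase (chr11:78322968-78327781), was far less abundant and had the smallest p of all members. It stood at 0.596, 0.657, 0.855, 0.296 and 0.350 CPM in high-fat mice 1 to 5, against 1.13, 1.17, 2.04, 1.58 and 0.683 CPM in control mice 1 to 5. It had 164 counts over the 10 libraries, and the groups overlapped through control mouse 5, with a change of -1.25 on the log2 scale (SE 0.35, edgeR adjusted p = 0.196). Exons of Aldoa overlap those of Fam57b and exons of Tpi1 those of Spsb2 on the opposite strand, and no source used here states the strand setting of the counts. The same holds for Hk1 with Hk1os, Gpi1 with Gm26762, Pfkp with Pitrm1, Pfkm with Senp1, Pfkfb2 with Yod1 and Gapdh with Iffo1. It also holds for Mpc1 with 4930506C21Rik, Pdha1 with Map3k15, Pck2 with Gm10876, G6pdx with Ikbkg and Rpe with Kansl1l.

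The entry and commitment steps have several isozymes each. Hk2, the hexokinase that many tumors induce and that sits on mitochondria, was 143, 121, 123, 143 and 121 CPM in high-fat mice 1 to 5, against 149.7, 150.3, 133, 146 and 155 CPM in control mice 1 to 5. High-fat mice 1 and 4 exceeded control mouse 3 and the other 3 lay below all controls, the log2 change being -0.17 (SE 0.07, edgeR adjusted p = 0.358). Hk1, the widely expressed hexokinase, averaged 290.1 ± 11.8 CPM in high-fat and 300.0 ± 32.2 CPM in control mice, with a change of -0.05 on the log2 scale (SE 0.08, edgeR adjusted p = 0.866). Of the phosphofructokinases, which commit sugar to glycolysis, the liver-type Pfkl stood at 425, 303, 308, 372 and 349.5 CPM in high-fat mice 1 to 5, against 396, 391.9, 389.7, 407 and 464 CPM in control mice 1 to 5. High-fat mouse 1 exceeded 4 of the 5 controls and the other 4 high-fat libraries lay below all of them, the log2 change being -0.22 (SE 0.10, edgeR adjusted p = 0.385). The platelet-type Pfkp averaged 80.0 ± 12.3 CPM in high-fat and 89.5 ± 8.35 CPM in control mice, with a change of -0.16 on the log2 scale (SE 0.11, edgeR adjusted p = 0.601). The muscle-type Pfkm averaged 103 ± 6.19 CPM in high-fat and 96.6 ± 13.0 CPM in control mice and had a change of 0.10 (SE 0.09), and its exons overlap those of Senp1 on the opposite strand. Gpi1, which turns glucose phosphate into fructose phosphate, averaged 442 ± 43.0 CPM in high-fat and 508 ± 70.6 CPM in control mice, the log2 change being -0.20 (SE 0.10, edgeR adjusted p = 0.465). The second Aldoa identifier averaged 4.21 ± 0.896 CPM in high-fat and 4.14 ± 0.978 CPM in control mice and had a change of 0.02 (SE 0.20).

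The bifunctional enzymes that make and remove fructose 2,6-bisphosphate set the level of this activator of phosphofructokinase. At an unadjusted p under 0.05, 1 of the 3 was lower, against 6.62% of all genes tested. Pfkfb3, the form whose kinase activity most outweighs its phosphatase activity, stood at 17.2, 12.6, 12.5, 12.5 and 10.03 CPM in high-fat mice 1 to 5, against 18.2, 15.9, 13.2, 28.1 and 15.2 CPM in control mice 1 to 5. Control mouse 4 was the highest library, and high-fat mouse 1 was the only high-fat library not below all controls, with a change of -0.48 on the log2 scale (SE 0.20, edgeR adjusted p = 0.352). Pfkfb4 stood at 10.96, 11.95, 11.6, 11.1 and 10.5 CPM in high-fat mice 1 to 5, against 9.14, 10.6, 12.1, 11.9 and 9.74 CPM in control mice 1 to 5, with the high-fat values inside the control range, the log2 change being 0.07 (SE 0.10, edgeR adjusted p = 0.842). Pfkfb2, the heart-type form, averaged 7.04 ± 2.14 CPM in high-fat and 6.67 ± 0.937 CPM in control mice, with a change of 0.08 on the log2 scale (SE 0.19, edgeR adjusted p = 0.922).

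In lower glycolysis all 5 tested genes had negative changes, against 48.6% of all genes tested. At an unadjusted p under 0.05, 3 of the 5 were lower, against 6.62% of all genes. Eno1 (chr4:150236721-150248879), the enolase that makes phosphoenolpyruvate, stood at 277, 218, 198, 247 and 261 CPM in high-fat mice 1 to 5, against 310.3, 341, 267, 275 and 360.4 CPM in control mice 1 to 5. High-fat mouse 1 exceeded control mice 3 and 4, and the other high-fat libraries lay below all controls, the log2 change being -0.37 (SE 0.11, edgeR adjusted p = 0.210). Pgk1 (chrX:106187100-106203699), the kinase that makes the first ATP of this phase, stood at 42.2, 31.2, 27.2, 36.1 and 39.9 CPM in high-fat mice 1 to 5, against 41.8, 53.1, 37.3, 40.5 and 59.8 CPM in control mice 1 to 5. High-fat mice 1 and 5 overlapped the controls, with a change of -0.40 on the log2 scale (SE 0.15, edgeR adjusted p = 0.309). Pkm, the pyruvate kinase gene whose splice forms the counts do not separate, stood at 1551, 1322, 1251, 1463 and 1542 CPM in high-fat mice 1 to 5, against 1633, 1542, 1545, 1622 and 1932 CPM in control mice 1 to 5. Its groups overlapped only through high-fat mouse 1 and, by a narrow margin, high-fat mouse 5, the log2 change being -0.21 (SE 0.09, edgeR adjusted p = 0.377). Gapdh averaged 36.2 ± 15.4 CPM in high-fat and 43.8 ± 7.54 CPM in control mice, with a change of -0.28 on the log2 scale (SE 0.26, edgeR adjusted p = 0.756), and Pgam1, the mutase between Pgk1 and enolase, averaged 27.9 ± 2.30 CPM in high-fat and 29.0 ± 2.94 CPM in control mice, the log2 change being -0.06 (SE 0.09, edgeR adjusted p = 0.859). The counts of copies elsewhere in the genome were also added, a choice made after the data were seen. Eno1 then had a change of -0.38 (SE 0.11), Pgk1 of -0.40 (SE 0.15) and Pkm of -0.21 (SE 0.09). The copies held 12.4% of the summed counts for Eno1 and 11.3% for Pkm. For Pgk1 they held 0.0%, so its value had no room to move.

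**Figure D3:**
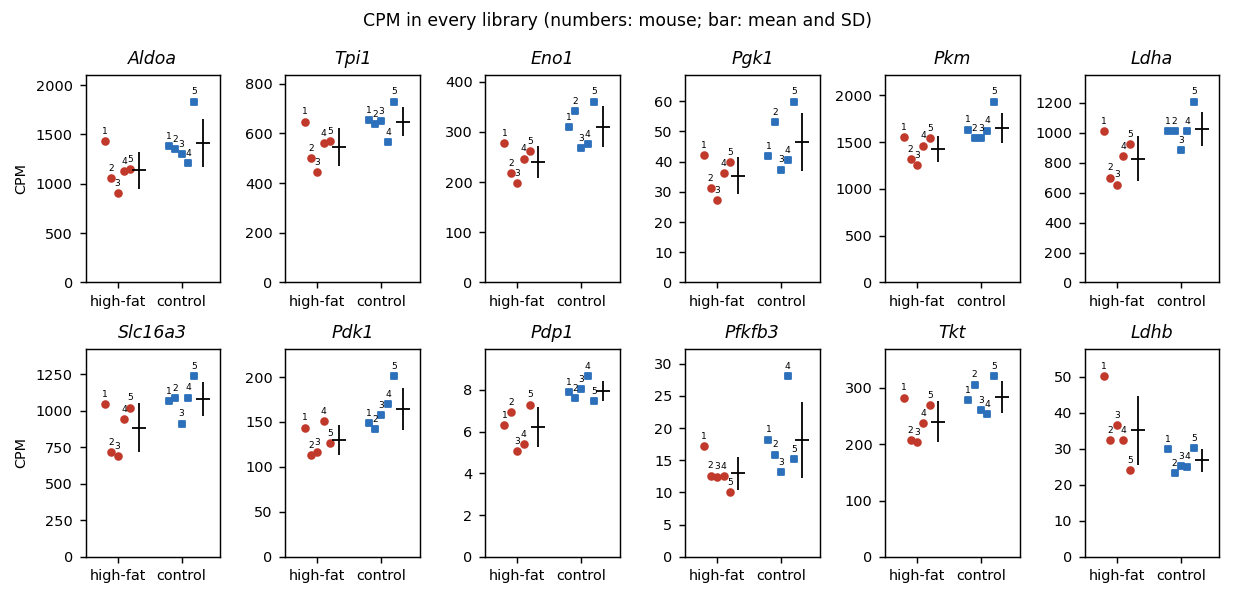
CPM in every library for 12 members, high-fat mice left of control mice in each panel, with axes from 0. Digits number the mice within each diet, and the crossbar beside each group is its mean and SD. High-fat mouse 1 is the high-fat library that lies among the controls in most panels, and Pdp1 is the panel in which the groups do not overlap.

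Ldha (chr7:46841475-46855627) encodes the subunit that favours reduction of pyruvate to lactate, and it stood at 1013, 701, 654, 846 and 927 CPM in high-fat mice 1 to 5, against 1013, 1014, 886, 1009.8 and 1208 CPM in control mice 1 to 5. High-fat mouse 1 reached the level of control mice 1 and 2, high-fat mouse 5 exceeded control mouse 3, and the remaining 3 high-fat libraries lay below all controls, with a change of -0.31 on the log2 scale (SE 0.12, edgeR adjusted p = 0.337). Slc16a3 (chr11:120948480-120960868), the low-affinity transporter MCT4 through which glycolytic cells export lactate, stood at 1043, 717, 691, 940.1 and 1021 CPM in high-fat mice 1 to 5, against 1066, 1088, 911, 1089 and 1237 CPM in control mice 1 to 5. High-fat mice 1, 4 and 5 exceeded control mouse 3 and no other control, the log2 change being -0.29 (SE 0.13, edgeR adjusted p = 0.390). Ldhb (chr6:142490249-142507957) encodes the subunit that favours oxidation of lactate to pyruvate, and it stood at 50.3, 32.5, 36.7, 32.4 and 24.1 CPM in high-fat mice 1 to 5, against 30.0, 23.3, 25.2, 25.1 and 30.2 CPM in control mice 1 to 5. High-fat mice 1 to 4 exceeded all 5 controls and high-fat mouse 5 lay below 4 of them, with a change of 0.39 on the log2 scale (SE 0.16, edgeR adjusted p = 0.348). Slc16a1, the widely expressed lactate and pyruvate transporter MCT1, averaged 129.8 ± 32.9 CPM in high-fat and 141 ± 16.3 CPM in control mice, the log2 change being -0.12 (SE 0.15, edgeR adjusted p = 0.822).

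The Ldha to Ldhb ratio followed from these values. On the log2 scale of CPM with a prior count of 2, it was 4.33, 4.43, 4.15, 4.70 and 5.26 in high-fat mice 1 to 5, against 5.07, 5.44, 5.13, 5.32 and 5.32 in control mice 1 to 5. High-fat mice 1 to 4 lay below all controls and high-fat mouse 5 lay among them. The mean was 4.57 ± 0.43 in high-fat mice and 5.25 ± 0.15 in control mice (SD, n = 5 each, exact two-sided permutation p = 0.0238). The difference was -0.68, and the adjusted p over 4 ratios was 0.0952, where 0.00794 is the smallest p that splitting the mice can give. Without high-fat mouse 5, the high-fat library among the controls, the difference was -0.85, with an adjusted exact permutation p of 0.0317. Of 13 alternatives this was the only 1 with an adjusted p under 0.05. Slc16a3 over Slc16a1 differed by -0.16, Hk2 over Hk1 by -0.13 and Pfkp over Pfkl by 0.06 on the same scale, with adjusted exact permutation p of 0.307, 0.307 and 0.587.

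**Figure D4:**
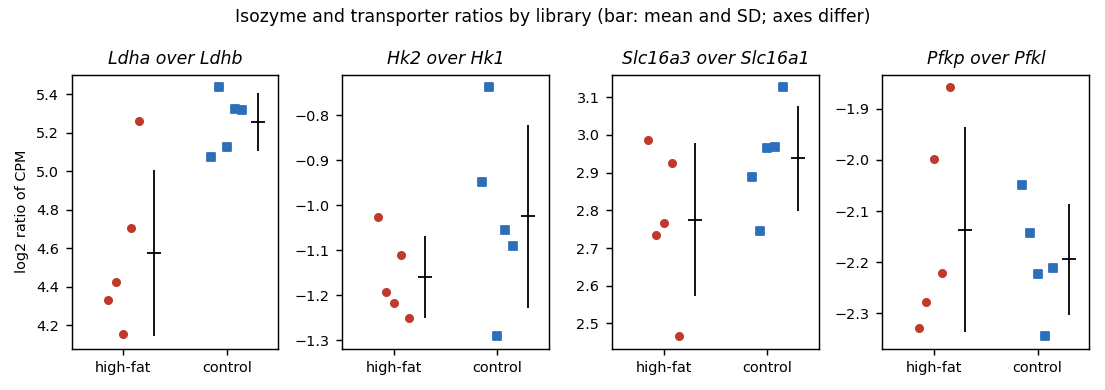
Log2 ratio of CPM for 4 pairs of isozymes or transporters of the same step, 1 point per mouse, high-fat left of control, with mean and SD beside each group and a separate axis per panel. The Ldha over Ldhb ratio ran from 4.15 to 5.26 in high-fat mice and from 5.07 to 5.44 in control mice, and the other 3 ratios overlapped more widely.

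The 300 bases around annotated starts, from 250 before to 50 after, were taken from RefSeq for GRCm38.p6 and searched on both strands for ACGTG and GCGTG, the spellings of the core that hypoxia-inducible factors are known to bind. Matches in the reference letters carry no measurement from these mice. Promoters were found for 40 of the 41 symbols, all but Pdp1. At least 1 core was present for 34 of 40 genes, 85.0%, against 46.7% of all 27025 genes with a promoter in that table. A gene with more starts has more chances to hold a core, and members had 59 promoters while all genes had 32851. Counted per promoter, the shares were 74.6% and 43.8%. Both spellings hold a CG pair, and the base composition of the members was not matched to that of all genes. By direction, 12 of the 13 genes lower at an unadjusted p under 0.05 and 22 of the other 26 held a core. The 5 promoters shown belong to the 4 genes of the lactate step, whatever their change, and to the gene of lower glycolysis with the largest negative change, and cores on either strand are in capitals. The first start of Ldha (chr7:46845554-46845853, plus strand) held 5 ACGTG and 2 GCGTG matches, of which 4 ACGTG matches lie in 2 copies of the palindrome CACGTG, which counts once on each strand. Pgk1 (chrX:106186850-106187149, plus strand) and Slc16a3 (chr11:120948817-120949116, plus strand) held 2 ACGTG matches each, and Ldhb (chr6:142507908-142508207, minus strand) held 1 GCGTG match. Slc16a1 (chr3:104638414-104638713, plus strand), with a change of -0.12, held 3 ACGTG and 2 GCGTG matches.
Ldha: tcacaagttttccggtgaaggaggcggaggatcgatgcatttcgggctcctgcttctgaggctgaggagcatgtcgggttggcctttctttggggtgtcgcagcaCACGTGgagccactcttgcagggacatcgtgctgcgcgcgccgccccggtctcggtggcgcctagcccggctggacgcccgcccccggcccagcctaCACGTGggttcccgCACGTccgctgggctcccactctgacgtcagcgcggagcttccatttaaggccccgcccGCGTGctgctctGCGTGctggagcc
Slc16a3: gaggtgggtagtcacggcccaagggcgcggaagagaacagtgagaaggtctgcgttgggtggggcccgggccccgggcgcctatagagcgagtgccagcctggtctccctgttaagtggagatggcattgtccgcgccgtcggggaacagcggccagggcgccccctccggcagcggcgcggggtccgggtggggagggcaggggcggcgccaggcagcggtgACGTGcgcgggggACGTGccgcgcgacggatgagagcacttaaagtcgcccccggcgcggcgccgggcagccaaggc
Slc16a1: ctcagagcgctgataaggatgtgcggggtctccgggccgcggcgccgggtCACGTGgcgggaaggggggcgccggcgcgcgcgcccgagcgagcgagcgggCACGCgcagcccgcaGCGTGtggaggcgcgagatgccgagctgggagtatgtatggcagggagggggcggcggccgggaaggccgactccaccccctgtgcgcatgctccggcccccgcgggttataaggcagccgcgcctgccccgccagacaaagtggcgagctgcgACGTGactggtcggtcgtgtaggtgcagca
Pgk1: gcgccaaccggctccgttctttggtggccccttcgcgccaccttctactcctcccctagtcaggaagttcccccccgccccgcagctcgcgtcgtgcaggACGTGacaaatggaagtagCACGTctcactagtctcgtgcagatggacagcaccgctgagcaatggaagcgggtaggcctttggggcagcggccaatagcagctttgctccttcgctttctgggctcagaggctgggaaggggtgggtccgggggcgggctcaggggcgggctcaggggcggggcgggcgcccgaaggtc
Ldhb: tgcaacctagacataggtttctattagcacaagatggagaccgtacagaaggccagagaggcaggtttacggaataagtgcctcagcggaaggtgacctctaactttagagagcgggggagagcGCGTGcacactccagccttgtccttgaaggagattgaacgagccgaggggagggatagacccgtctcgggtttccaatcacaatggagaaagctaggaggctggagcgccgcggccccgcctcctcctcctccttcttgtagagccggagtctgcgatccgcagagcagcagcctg
A match is a run of letters and not a measured binding site, and CACGTG was present for 17.5% of member genes and 8.09% of all genes. Counted per promoter, the shares of CACGTG were 11.9% and 7.15%.

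The mitochondrial pyruvate carrier and the 4 genes of the pyruvate dehydrogenase complex showed no member at an unadjusted p under 0.05, with changes between -0.07 for Dlat and 0.31 for Mpc1. Pdha1, the catalytic subunit that the kinases phosphorylate, stood at 143, 136, 136, 144 and 143 CPM in high-fat mice 1 to 5, against 138, 136, 143, 122 and 134 CPM in control mice 1 to 5. High-fat mice 4 and 5 lay just above the highest control and the other 3 among the controls, with a change of 0.06 on the log2 scale (SE 0.06, edgeR adjusted p = 0.776). Pdhb, its partner subunit, averaged 44.8 ± 5.72 CPM in high-fat and 43.0 ± 1.97 CPM in control mice. Dlat, the acetyltransferase core, averaged 109 ± 11.5 CPM in high-fat and 114 ± 4.94 CPM in control mice, and Dld, the shared dihydrolipoamide dehydrogenase, averaged 118 ± 16.3 CPM in high-fat and 116 ± 7.22 CPM in control mice. Mpc1, a subunit of the carrier, stood at 2.62, 1.73, 4.34, 2.48 and 1.81 CPM in high-fat mice 1 to 5, against 2.08, 2.18, 2.10, 2.06 and 2.05 CPM in control mice 1 to 5. High-fat mice 1, 3 and 4 lay above the narrow range of the controls and high-fat mice 2 and 5 below it, the log2 change being 0.31 (SE 0.24, edgeR adjusted p = 0.678). Adding the counts of its pseudogene, which held 72.9% of the sum, brought the change of Mpc1 to 0.06 (SE 0.10). Mpc2, the other subunit, averaged 22.0 ± 2.56 CPM in high-fat and 21.3 ± 1.23 CPM in control mice.

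Of the 4 regulators of the complex, a kinase and a phosphatase were lower at an unadjusted p under 0.05, where 6.62% of all genes tested were. Pdk1 (chr2:71873224-71903858), a kinase that switches the complex off and a known target of hypoxia-inducible factor, stood at 144, 113, 117, 151 and 126 CPM in high-fat mice 1 to 5, against 149, 142, 158, 170.2 and 201 CPM in control mice 1 to 5. High-fat mouse 4 exceeded control mice 1 and 2 and high-fat mouse 1 exceeded control mouse 2, with a change of -0.33 on the log2 scale (SE 0.11, edgeR adjusted p = 0.249). Pdp1 (chr4:11958184-11966452), a phosphatase that switches the complex on, stood at 6.31, 6.93, 5.07, 5.38 and 7.29 CPM in high-fat mice 1 to 5, against 7.89, 7.59, 8.05, 8.66 and 7.46 CPM in control mice 1 to 5. All 5 high-fat libraries lay below all 5 controls, the log2 change being -0.35 (SE 0.12, edgeR adjusted p = 0.266). It was the 1 member whose groups did not overlap, 2.44% of members tested, where 1.1% of all genes tested had all high-fat libraries below all controls. Pdk3, another kinase, stood at 70.0, 56.8, 57.7, 61.0 and 63.3 CPM in high-fat mice 1 to 5, against 56.9, 63.4, 66.8, 63.4 and 76.4 CPM in control mice 1 to 5. High-fat mouse 1 exceeded 4 controls and the other high-fat libraries 1 or 0, with a change of -0.08 on the log2 scale (SE 0.09, edgeR adjusted p = 0.779). Pdk2 averaged 19.4 ± 3.29 CPM in high-fat and 19.3 ± 5.47 CPM in control mice.

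Pyruvate carboxylase, Pcx, which refills the citric acid cycle from pyruvate, averaged 6.86 ± 2.16 CPM in high-fat and 7.67 ± 1.53 CPM in control mice, the log2 change being -0.16 (SE 0.21, edgeR adjusted p = 0.823). Pck2, the mitochondrial enzyme that makes phosphoenolpyruvate from oxaloacetate, stood at 151, 137, 146, 145 and 191 CPM in high-fat mice 1 to 5, against 168, 206, 161, 140.2 and 189 CPM in control mice 1 to 5. The groups overlapped, high-fat mouse 5 lying above 4 of the controls, with a change of -0.17 on the log2 scale (SE 0.11, edgeR adjusted p = 0.614).

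In the pentose phosphate pathway 1 of 7 genes was lower at an unadjusted p under 0.05. Of all genes tested 6.62% were, so with 7 genes this count is near that share. The median change was -0.04 in the oxidative and -0.01 in the nonoxidative branch. G6pdx, the dehydrogenase that commits glucose phosphate to the oxidative branch, stood at 145, 153, 136, 151 and 159 CPM in high-fat mice 1 to 5, against 135, 133, 185, 146 and 168 CPM in control mice 1 to 5. Control mouse 3 and control mouse 5 were the highest libraries, and the groups overlapped, the log2 change being -0.04 (SE 0.09, edgeR adjusted p = 0.902). Pgls, the lactonase of the next step, stood at 82.2, 70.2, 68.0, 67.7 and 59.5 CPM in high-fat mice 1 to 5, against 77.0, 90.2, 69.2, 74.2 and 86.9 CPM in control mice 1 to 5. High-fat mouse 1 exceeded 3 controls, high-fat mouse 2 exceeded 1, and the other 3 lay below all controls, with a change of -0.19 on the log2 scale (SE 0.10, edgeR adjusted p = 0.459). Pgd, which releases the ribulose phosphate, averaged 177 ± 19.4 CPM in high-fat and 181 ± 19.2 CPM in control mice. Tkt, the transketolase that links the nonoxidative branch to glycolysis, stood at 283, 207, 203, 238 and 270.2 CPM in high-fat mice 1 to 5, against 279, 306, 260.4, 253 and 321 CPM in control mice 1 to 5. High-fat mice 1 and 5 overlapped the controls and the other 3 lay below them, the log2 change being -0.24 (SE 0.11, edgeR adjusted p = 0.385). Taldo1, the transaldolase of the same branch, averaged 52.8 ± 6.74 CPM in high-fat and 53.3 ± 4.12 CPM in control mice. Rpia, the ribose phosphate isomerase, averaged 22.5 ± 3.00 CPM in high-fat and 20.9 ± 1.61 CPM in control mice. Rpe, the epimerase, averaged 25.3 ± 1.92 CPM in high-fat and 25.3 ± 3.03 CPM in control mice.

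Taken by library as the mean log2 CPM of the tested members, upper glycolysis stood between 6.52 and 6.79 in high-fat libraries and between 6.80 and 6.90 in control libraries. Lower glycolysis stood between 6.60 and 6.78 in high-fat and between 6.87 and 7.08 in control libraries. With all members counted equally, all 5 high-fat libraries lay below all 5 controls in these 2 steps, and the diets overlapped in the 7 others. In each of the 2 steps 1 gene decided this, in a check chosen after the data were seen. Without Aldoc, the gene with 164 counts, upper glycolysis in high-fat mouse 1 stood at 7.60, above 4 of the controls, and 3 high-fat libraries remained below all controls. Without Gapdh, lower glycolysis in high-fat mouse 1 stood at 7.26, above 2 of the controls, and again 3 high-fat libraries lay below all of them. The groups did not separate for any single gene of either step. Summed as CPM over glycolysis and the lactate step, high-fat mouse 1 held 7809 CPM, within the control range of 7379 to 9388 CPM. The carrier and complex genes stood between 5.21 and 5.41 in high-fat and between 5.23 and 5.33 in control libraries. No test is given for these means, since their members were chosen with results known. Among the 14 members lower at an unadjusted p under 0.05, high-fat mouse 1 was the highest high-fat library for 11, high-fat mouse 3 the lowest for 9 and control mouse 5 the highest control library for 11. High-fat mouse 2 lay below all controls for all 14, and high-fat mouse 1 for 2. Summed over all 42 identifiers, members held 7153 to 9480 CPM in high-fat libraries and 9086 to 11246 CPM in control libraries.

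**Figure D5:**
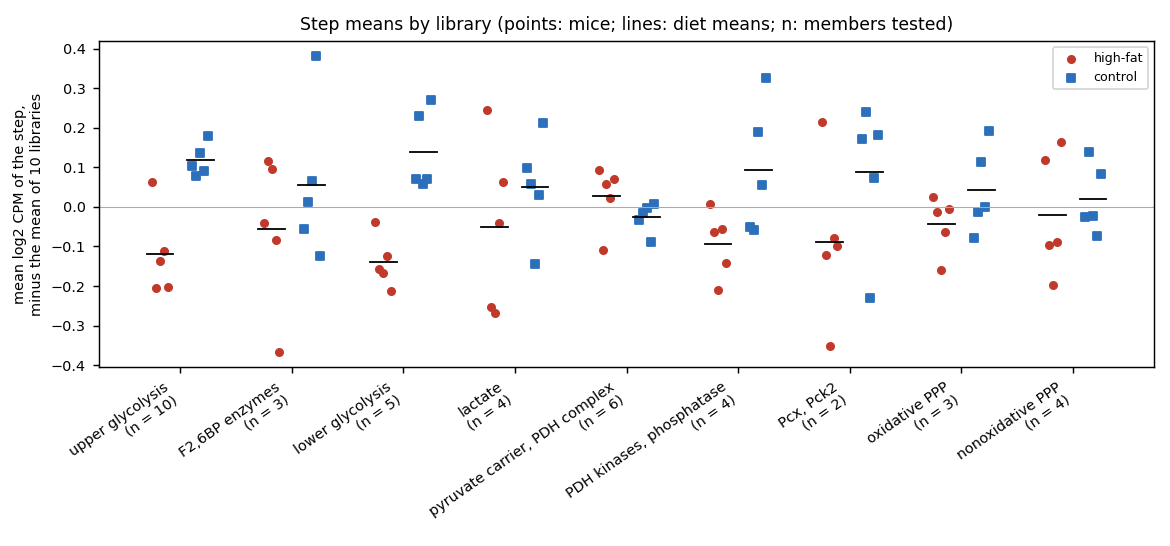
Mean log2 CPM of the tested members of each step in each library, minus the mean over the 10 libraries, with high-fat mice left of control mice and diet means as lines. F2,6BP stands for fructose 2,6-bisphosphate, PDH for pyruvate dehydrogenase and PPP for pentose phosphate pathway. Upper and lower glycolysis are the 2 steps whose diets do not overlap, which holds only with Aldoc in the upper and Gapdh in the lower step.

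Beyond the members, a list of 40 other genes of these pathways held 22 that could be tested and 18 below the expression filter, among them Pklr, Pck1 and the kinase gene Pdk4. In edgeR 0 of the 22 had an adjusted p under 0.05, as in limma-voom, while Hk3 did in DESeq2, where 1.84% of all genes did. At an unadjusted p under 0.05 in edgeR 3 were lower and 0 higher, against 6.62% and 5.45% of all genes tested. Of the 22, 15 had a negative change, against 48.6% of all genes tested, and the median change was -0.04. The 2 with the smallest p were Hk3 and Tigar. Hk3, a hexokinase known from myeloid cells, stood at 0.834, 1.20, 0.855, 1.12 and 0.933 CPM in high-fat mice 1 to 5, against 2.25, 1.43, 6.12, 9.35 and 0.740 CPM in control mice 1 to 5. The high controls, mice 3 and 4, were also the libraries with the most macrophage transcript, at 392.4 and 449 CPM summed over the markers, with a change of -2.004 on the log2 scale (SE 0.60, edgeR adjusted p = 0.235). Tigar, a fructose bisphosphatase that diverts sugar to the pentose phosphate pathway, stood at 18.6, 19.7, 19.4, 20.8 and 22.1 CPM in high-fat mice 1 to 5, against 26.2, 24.6, 22.0, 24.4 and 22.4 CPM in control mice 1 to 5. The groups overlapped through high-fat mouse 5, the log2 change being -0.25 (SE 0.08, edgeR adjusted p = 0.243). Slc2a1 and Bsg are given for their roles, a choice made after their values were seen. Slc2a1, the main glucose transporter of tumor cells, averaged 308 ± 77.3 CPM in high-fat and 377 ± 64.3 CPM in control mice, with a change of -0.29 on the log2 scale (SE 0.17, edgeR adjusted p = 0.558), and Bsg, the chaperone that carries the lactate transporters to the surface, averaged 946 ± 122 CPM in high-fat and 1089.8 ± 103 CPM in control mice, the log2 change being -0.20 (SE 0.10, edgeR adjusted p = 0.459).

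Of 19 listed hypoxia-induced genes outside glycolysis, 17 had negative changes, against 48.6% of all genes tested. At an unadjusted p under 0.05, 9 were lower and 0 higher, against 6.62% and 5.45% of all genes. The median change of the 19 was -0.37. The list was chosen with earlier results of these data known, so these counts carry no test. In edgeR and limma-voom 0 of the 19 had an adjusted p under 0.05. In DESeq2 Car9, Ero1l and Selenbp1 did, where 1.84% of all genes did. The 2 with the smallest p are given. Ero1l, an oxidase of the endoplasmic reticulum, averaged 229 ± 44.4 CPM in high-fat and 421 ± 96.0 CPM in control mice, with a change of -0.88 on the log2 scale (SE 0.17, edgeR adjusted p = 0.108), and Car9, a carbonic anhydrase widely used as a hypoxia marker, averaged 22.5 ± 3.89 CPM in high-fat and 39.3 ± 9.38 CPM in control mice, the log2 change being -0.81 (SE 0.16, edgeR adjusted p = 0.108). Their part in the lower glycolytic levels was not tested. The macrophage level was lower on the same diet, and with it as a covariate 11 of the 14 lower members stayed lower at an unadjusted p under 0.05 and 3 did not. Aldoc then had a change of -0.60, Pfkfb3 of -0.28 and Pdp1 of -0.21, each nearer 0 by over 1.5 times. Pfkp, Pck2 and Pgls became lower at that threshold, so 14 members were lower in that fit. Of all 14337 genes tested 1131 were. In the same fit 2 members passed an adjusted p of 0.05 as lower, Eno1 with a change of -0.64 (edgeR adjusted p = 0.0191) and Pgk1 with one of -0.77 (edgeR adjusted p = 0.0261), where 1.94% of all genes passed. With log2 library size as a covariate 4 members, Aldoa, Aldoc, Tpi1 and Eno1, were lower at an unadjusted p under 0.05 and none passed after adjustment. Of all 14337 genes tested 472 were lower at that threshold and 0 passed.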

How the data were processed

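Raw read counts per gene, whole numbers, were deposited by the authors in 1 table with a column per mouse. Per the submitters' processing notes the tools were cutadapt 1.15, FastQC 0.11.5, BWA 0.7.12 and DESeq2 1.24.0 and the builds GRCm38 and mm10. No source used here names the counter, annotation release or strand setting, so opposite-strand partners cannot be told apart and reads across exon junctions may be undercounted. Symbols, exon lengths and coordinates came from GENCODE M21 (GRCm38), which 53274 of 53379 identifiers matched without version.

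Genes were filtered with filterByExpr, scaled by TMM and tested, high-fat against control, with edgeR 4.0.16 (robust quasi-likelihood) in R 4.3.3, adjusted by Benjamini-Hochberg over 14337 genes. DESeq2 1.42.0, limma 3.58.1 (voom), other filters and scalings, covariates and left-out libraries were alternatives. The fit was tested on simulated data, at an adjusted p under 0.05. It recovered 83% of genes changed by 1 and 47.5% of genes changed by 0.5 on the log2 scale. Of 139 genes it passed, 9 were false. Changes smaller than 0.5, as most members had, were not simulated. Isozyme ratios used exact permutation tests of log2 CPM. Counting intervals and floors cover counting error only. Mouse numbers are shared between diets, and the labels name no pairing of the samples.

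The members and lists were chosen with earlier results of these data known. By rule, values in every library are given for members with an unadjusted p under 0.05 and, in each step, for the member highest per kilobase and the one with the smallest p, and for the 2 other pathway genes with the smallest p. Adding the counts of copies was chosen after the data were seen.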

Additional observations from a re-analysis of the deposited data

Results flagged for a closer look

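In 5 of 90 groups of 5 libraries (45 quantities in 2 diets), the gap from the highest library to its nearest neighbour was a larger part of the group's range than 0.71, the critical value of Dixon's test, and chance alone gives about 1 group in 20. Among high-fat mice, mouse 5 stood apart for Dld at 146.7 CPM, with 115.8 CPM in the next library and a gap of 0.798 of the range. The same mouse stood apart for Pck2 at 190.5 CPM, with 150.6 CPM in the next library and a gap of 0.740. Among control mice, mouse 5 stood apart for Pfkl at 464 CPM, with 407 CPM in the next library and a gap of 0.773. Control mouse 5 also stood apart for Aldoa at 1833 CPM against 1384 CPM, a gap of 0.720, and for Pkm at 1932 CPM against 1633 CPM, a gap of 0.767.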

How the results depend on the processing

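Of 861 member changes recomputed under 21 alternatives, 813 kept their direction and side of the threshold, 46 turned direction and 2 passed the threshold. None of the 294 values of the 14 lower members turned direction, but these members were picked as lower in the same libraries. Over all genes 9 passed an adjusted p of 0.05 in the fit reported. That number was 326 with DESeq2, 5 with limma-voom, 53 with no filter on low counts, 278 with the macrophage level as a covariate, 276 without control mice 3 and 4, and 1 to 27 when single libraries were left out. With library size as a covariate edgeR passed 0 genes, where 817 had an unadjusted p under 0.05, 472 of them lower and 345 higher. At that threshold 4 members were lower and 0 higher. With mouse number as a replicate block 16 genes passed. At an unadjusted p under 0.05, 14 members were lower, 13 of them shared with the fit reported, where 892 of all genes were. Same-numbered mice had correlations of 0.23, -0.36, 0.33, -0.07 and 0.15, and only mouse 3 correlated best with its own number. The labels name no pairing, and these few values cannot show whether there was one. With the block the exact sign-flip p of the Ldha over Ldhb ratio was 0.0625, adjusted 0.25. Leaving out single libraries gave 4 to 16 members lower and 0 to 2 higher at an unadjusted p under 0.05. Over all genes 713 to 1136 were then lower and 514 to 1016 higher. The Ldha over Ldhb difference ranged from -0.85 to -0.58.

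With the macrophage level as a covariate 2 members passed and 0 were higher at an unadjusted p under 0.05, where 1105 of all genes were higher. The median change was then -0.32 in upper glycolysis, -0.38 in the lactate step, -0.38 over Pcx and Pck2 and -0.16 in the nonoxidative branch, and with limma-voom it was -0.37 in lower glycolysis. Directions turned for Hk1 (0.0233), the second Aldoa identifier (-0.23), Dld (-0.0096), Pdk2 (-0.0046), G6pdx (0.0663), Pgd (0.0426) and Rpe (-0.16). With library size they turned for Slc16a1 (0.0449), Pdha1 (-0.0071), Pdk2 (-0.22), Rpe (-0.0072) and Taldo1 (0.0369). Without control mice 3 and 4, 0 members were higher at an unadjusted p under 0.05, where 1109 of all genes were. In that setting Hk1 (0.0011), the second Aldoa identifier (-0.0754), G6pdx (0.0325), Pgd (0.0176), Rpe (-0.10) and Pfkp over Pfkl (-0.0013) turned. Leaving out single libraries gave changes on both sides of 0, from -0.0586 to 0.14 for the second Aldoa identifier, -0.0429 to 0.19 for Pfkfb2, -0.0925 to 0.0073 for Pgam1, -0.0601 to 0.0630 for Dld, -0.0698 to 0.15 for Pdk2, -0.0923 to 0.0322 for G6pdx, -0.0892 to 0.0192 for Pgd, -0.0418 to 0.0619 for Rpe, -0.0651 to 0.0415 for Taldo1 and -0.0115 to 0.11 for Pfkp over Pfkl. The causes were not tested.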
